A study of Mus musculus with 2 samples.

Results

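The regions described here are DNase I hypersensitive peaks at internal alternative promoters, which are promoters inside a gene that start a shorter protein-coding transcript. A peak was a member when its centre lay within 500 bp of the start of a protein-coding transcript in the GENCODE M21 annotation on the mm10 build, where that start lies over 5 kb downstream of the outermost 5′ end of its gene and over 1 kb from the outermost 5′ end of any gene. By this rule 2960 of 208674 peaks of replicate 1 (1.42%) and 2768 of 196593 peaks of replicate 2 (1.41%) were members, counting the autosomes, X and Y. The annotation holds 9843 such starts. Joined where neighbouring starts of a gene lie within 500 bp, they make 7761 internal promoters in 4980 genes, which is 22.7% of 21938 protein-coding genes. Of these genes, 3367 have 1 internal promoter and 1613 have several, up to 12. The internal promoters lie a median of 26.2 kb from the outermost 5′ end, called the first promoter here.

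Many mammalian genes have more than 1 promoter. A downstream promoter can give the same protein from another first exon, with other control over when and where it is made, or a protein that lacks the N-terminal part of the long form. Promoters come in a CpG-rich kind, often open in many tissues, and a CpG-poor kind, often open in few, and an active promoter is usually free of nucleosomes just upstream of its start, which leaves the DNA open to cutting by DNase I.

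The tissue was whole limb of B6NCrl mouse embryos at day 14.5, healthy, with males and females pooled, and the labels name no other tissue, stage or treatment. The assay was DNase-seq, with 2 libraries that the labels call biological replicates. Both carry the same donor identifier, so the spread between them may be technical. With 1 group of 2 libraries there is no contrast between samples, and no p-value is given anywhere. Of 6 marker genes of limb mesenchyme, 5 held a peak common to both replicates at the first promoter and all 6 at some start, against 0 of 3 liver genes, 1 of 3 heart genes (Tnni3) and 1 of 3 brain genes (Slc17a7). Skin, muscle, cartilage, vessel and nerve cells are all part of the limb, and a peak does not tell which of them opened the site. The authors' signal per peak is a whole number in a unit not given in the sources used here, with a median over all peaks of 42 in replicate 1 and 31 in replicate 2. Read depth is unknown, so a missing peak means only that none was called.

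The sequence just upstream of a start is printed for internal promoters toward either end of the range of CpG content described below. Those of intermediate CpG content are not printed. The 4 promoters printed first are CpG-rich and the 3 printed after them are CpG-poor, and all 7 held a peak in both replicates. Each run is 150 bases of the mm10 genome ending at the base before the start, read 5′ to 3′ on the strand of the gene, with every CpG dinucleotide in capitals. Hdac4 encodes a histone deacetylase that restrains the maturation of cartilage cells (chr1:92180342-92180491, minus strand). Ndel1 encodes a regulator of the dynein motor (chr11:68853136-68853285, minus strand). Inip encodes a subunit of a complex that binds single-stranded DNA (chr4:59783867-59784016, minus strand). Runx1 encodes a transcription factor needed for blood stem cells (chr16:92697329-92697478, minus strand). Trp63 encodes p63, the master factor of stratified skin (chr16:25801766-25801915, plus strand). Sox5 (chr6:144209569-144209718, minus strand) and Sox6 (chr7:115824711-115824860, minus strand) encode partners of Sox9 in cartilage. All 7 runs lie in introns of a longer transcript.
Hdac4: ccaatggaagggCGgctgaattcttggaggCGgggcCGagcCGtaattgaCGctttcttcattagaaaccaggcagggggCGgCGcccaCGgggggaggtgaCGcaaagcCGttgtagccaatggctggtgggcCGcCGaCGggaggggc
Ndel1: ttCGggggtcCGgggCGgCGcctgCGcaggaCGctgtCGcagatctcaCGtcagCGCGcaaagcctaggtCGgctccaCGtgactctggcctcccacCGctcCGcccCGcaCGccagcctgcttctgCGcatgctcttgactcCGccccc
Inip: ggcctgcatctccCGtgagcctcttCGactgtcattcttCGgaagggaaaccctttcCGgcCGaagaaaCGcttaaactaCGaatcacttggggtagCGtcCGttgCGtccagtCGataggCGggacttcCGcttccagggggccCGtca
Runx1: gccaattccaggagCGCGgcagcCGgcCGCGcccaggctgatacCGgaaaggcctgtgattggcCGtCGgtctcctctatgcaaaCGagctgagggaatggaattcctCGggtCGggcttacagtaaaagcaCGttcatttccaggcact
Trp63: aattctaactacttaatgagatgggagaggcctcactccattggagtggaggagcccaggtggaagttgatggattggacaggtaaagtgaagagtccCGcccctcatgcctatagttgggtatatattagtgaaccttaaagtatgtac
Sox5: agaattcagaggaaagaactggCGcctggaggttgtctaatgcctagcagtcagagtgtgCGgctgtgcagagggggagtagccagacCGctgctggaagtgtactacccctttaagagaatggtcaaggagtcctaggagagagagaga
Sox6: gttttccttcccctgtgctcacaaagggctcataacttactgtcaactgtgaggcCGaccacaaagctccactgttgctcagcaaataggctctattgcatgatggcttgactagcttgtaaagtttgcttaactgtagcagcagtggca
The 4 CpG-rich runs hold 13, 18, 14 and 12 CpGs, and the 3 CpG-poor runs hold 1, 3 and 1. The strongest shared peak covers 96 bases of the run at Hdac4, 90 at Ndel1, 141 at Inip, 137 at Runx1, 120 at Trp63, 143 at Sox5 and 125 at Sox6. The 7 are examples and do not stand for all open internal promoters. At other promoters named below the cover went from 0 bases, as at Ssc4d, Eef1a1 and Aktip, to 122 at Rangap1.

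Internal promoters were open in about 1 of 5 cases. A peak is called shared when the other list covers at least 50% of its length, and a promoter is called open when it holds a shared peak. Of the 7761 internal promoters, 1650 (21.3%) were open, 548 held a peak of 1 or both lists that was not shared, and 5563 held none. Taken alone, replicate 1 had a peak at 26.0% of them and replicate 2 at 24.8% (mean 25.4% ± 0.875, SD, n = 2). The first promoters of the same 4980 genes were open in 3212 cases (64.5%), with a peak in 70.7% for replicate 1 and 68.9% for replicate 2 (mean 69.8% ± 1.28, SD, n = 2). Over all 21938 protein-coding genes the first promoter was open in 58.3%. Windows of 500 bp on each side of points 3 kb from internal starts held a shared peak in 677 of 13362 cases (5.07%). Points upstream and downstream were kept where no annotated start lies within 1 kb. Internal promoters of several joined starts had wider windows, and with the window of 1 start only 1631 (21.0%) were open.

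Internal promoters differed by whether the 5′ end of the transcript is known, and the 2 kinds also differed in position. GENCODE tags a transcript whose 5′ end was not found, so that its annotated start is where the evidence stops. Of the internal promoters, 4917 have at least 1 transcript with a complete 5′ end and 2844 have none. Among the complete ones 1504 (30.6%) were open, with a peak in 36.8% for replicate 1 and 35.1% for replicate 2. Among the incomplete ones 146 (5.13%) were open, with a peak in 7.38% and 6.89%, beside 4.33% open among the windows 3 kb away from those same starts and 5.46% among those of the complete ones. Of the incomplete ones 2676 start in an exon of a longer transcript, against 1219 of the complete ones. Among starts in exons 4.45% of the incomplete and 10.6% of the complete ones were open. Among starts in introns it was 16.4% (26 of 159) and 37.2%. The gap between complete and incomplete ones in each replicate was many times the gap between replicates, as the bars show.

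**Figure D1:**
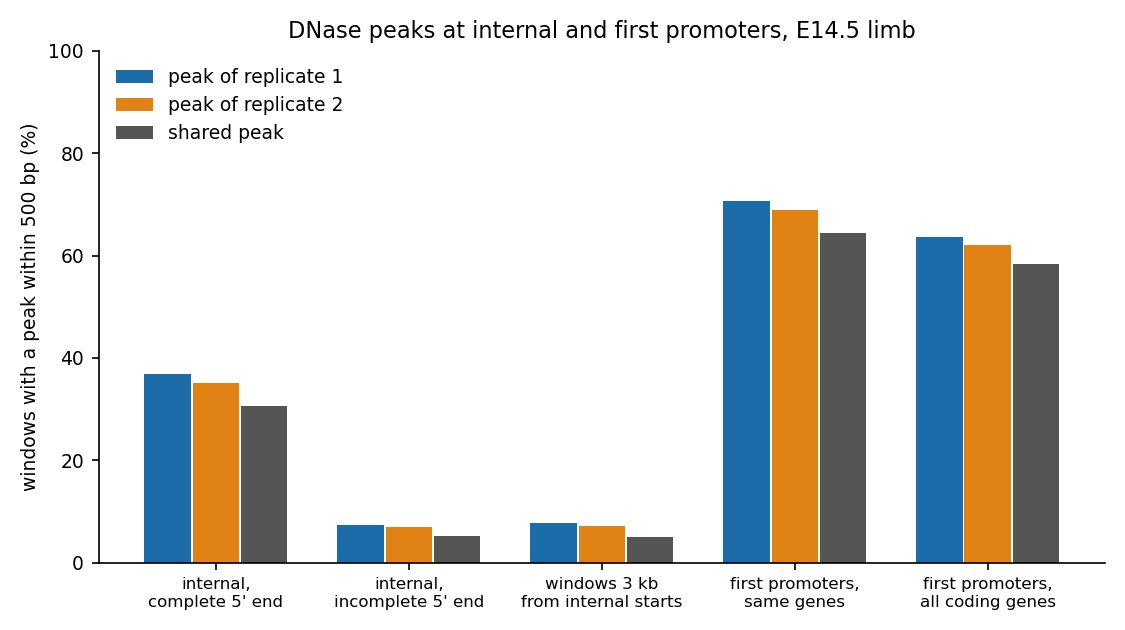
Percentage of windows that hold a peak of replicate 1, a peak of replicate 2 or a shared peak, for 5 sets of windows. A window is 500 bp on each side of a start, of each joined start, or of a point 3 kb away. Internal promoters with a complete 5′ end stand at 30.6% by shared peaks, between the windows 3 kb away (5.07%) and the first promoters of the same genes (64.5%), and those with an incomplete 5′ end at 5.13%.

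Among internal promoters with a complete 5′ end, openness followed the strength of the transcript evidence. At transcript support level 1, the best grade, 1000 of 2425 were open (41.2%), against 28.5% at level 2, 21.9% at level 3, 21.1% at level 5 and 12.7% of those with no grade. Promoters with 1 annotated transcript were open in 23.9% of cases, those with several in 48.6% and those with at least 3 in 60.1%. Those of transcripts in the consensus coding set were open in 36.0% of cases and the others in 23.2%. A start in an intron of a longer transcript was open in 1374 of 3694 cases (37.2%), and a start inside an exon of one in 129 of 1219 (10.6%). Start codons were compared with those of complete protein-coding transcripts that start within 5 kb of the outermost end, where there were any. By this comparison 743 of 2082 promoters with another start codon were open (35.7%), as were 573 of 2439 with the same start codon (23.5%). Openness also differed with distance. Of those 5 to 10 kb from the first promoter 25.7% were open, of those 10 to 30 kb away 28.4%, of those 30 to 100 kb away 32.9%, and of those over 100 kb away 39.3%. These properties overlap, and they were not separated from one another or from the wider windows of joined starts.

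Peaks at internal promoters sat where peaks sit at first promoters. At internal promoters with a complete 5′ end, the centres of shared peaks lay upstream of the nearest start, at medians of -30.5 and -31.5 bp in replicates 1 and 2. At first promoters the medians were -25.5 and -28.5 bp. Within 100 bp of the start lay 51.9% and 52.0% of the peaks at internal promoters with a complete 5′ end, and 51.2% and 51.0% of those at first promoters. At starts with an incomplete 5′ end it was 31.2% and 30.2%, over 157 and 159 peaks. In both replicates the incomplete starts were the ones with the lower portion.

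**Figure D2:**
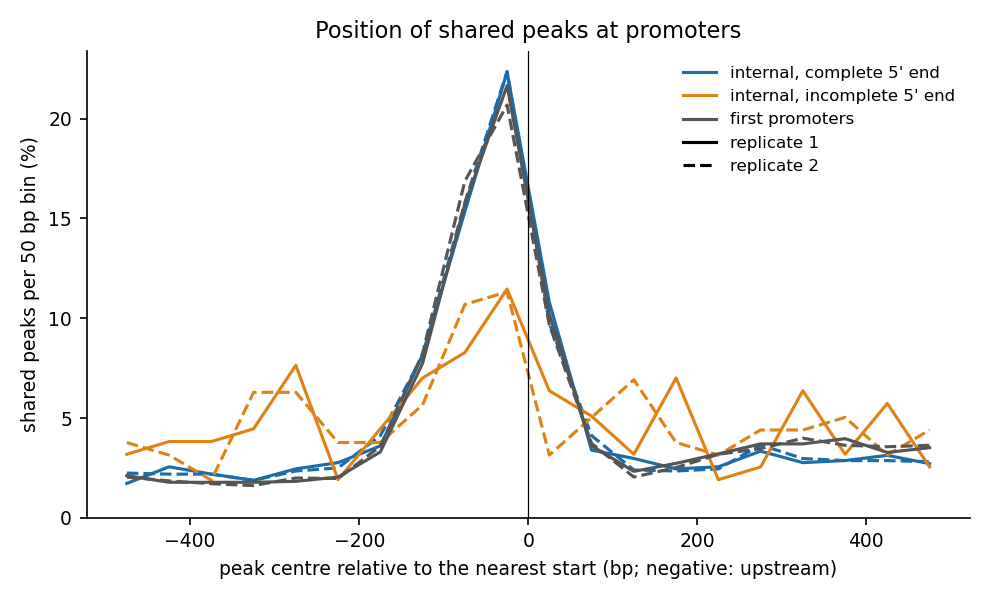
Position of shared peak centres relative to the nearest annotated start (horizontal axis, bp, negative values upstream) as a percentage of the shared peaks of each set per 50 bp bin, with replicate 1 as solid and replicate 2 as dashed lines. Internal promoters with a complete 5′ end and first promoters share 1 crest just upstream of the start, and the crest of the 157 and 159 peaks at incomplete 5′ ends is lower.

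Peaks at internal promoters were stronger and recurred more often than peaks at large, and were weaker than those at first promoters. The median signal of the members was 59 in replicate 1 and 42 in replicate 2, with ranges of 14 to 143 and 6 to 134. At the first promoters of the same genes it was 91 and 63. Of the members, 68.8% in replicate 1 and 73.7% in replicate 2 were shared, against 61.2% and 65% of all peaks in those lists, and 77.6% and 77.1% of the first promoter peaks. Hotspots, the broader regions of enrichment that the authors deposited beside the peaks, had median widths of 575 and 402.5 bp in replicates 1 and 2 where they held the best shared peak of an open internal promoter. Those over open first promoters had medians of 1147 and 741 bp.

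CpG content went with openness at both kinds of promoter. It is given as the ratio of observed to expected CpGs in the 1 kb around the start. Among internal promoters with a complete 5′ end, 9.42% were open at a ratio under 0.2, 23.3% at 0.2 to 0.4, 54.1% at 0.4 to 0.6, 86.8% at 0.6 to 0.8 and 90.7% at 0.8 or more. First promoters of the same genes were open in 7.18%, 28.3%, 74.6%, 90.8% and 95.0% of cases in the same classes. Internal minus first, the gap was 2.25 points in the lowest class, -4.98, -20.5, -3.99 and -4.27 points in the others. CpG-rich starts were less common inside genes, with 635 of 4917 internal promoters with a complete 5′ end at a ratio of 0.6 or more against 2599 of 4980 first promoters. The median ratio was 0.46 at open internal promoters with a complete 5′ end, 0.21 at those with no peak in either list, 0.74 at open first promoters and 0.18 at first promoters with no peak. At starts with an incomplete 5′ end the open portion was 3.59%, 4.57%, 10.9% and 33.3% (7 of 21) in the first 4 classes. In each of these 4 classes and in both replicates the incomplete starts were open less often than the complete ones.

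**Figure D3:**
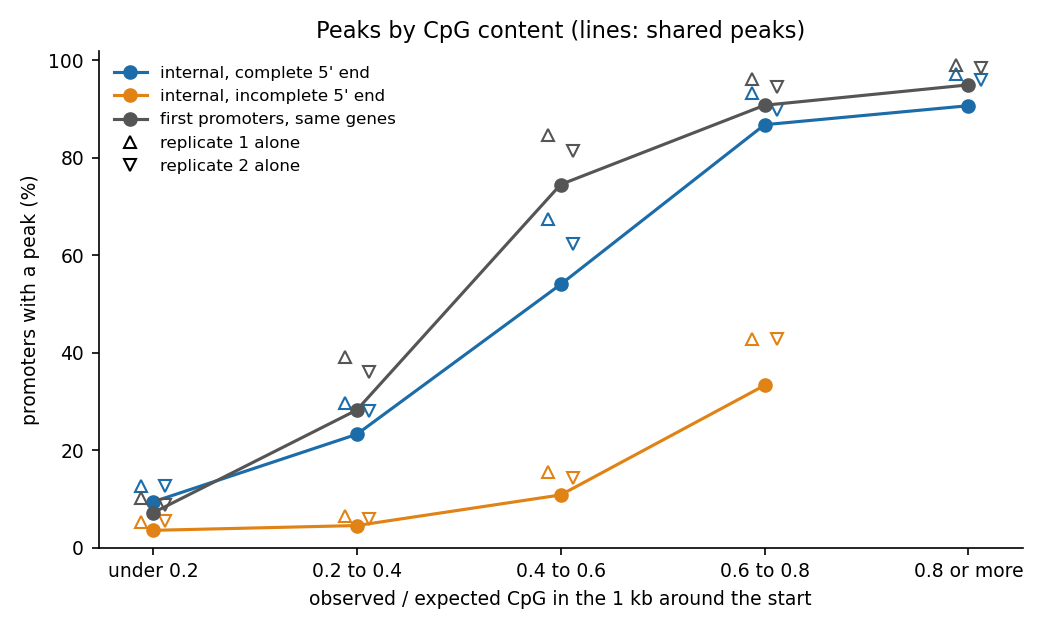
Percentage of promoters with a peak (vertical axis) by observed to expected CpG ratio in the 1 kb around the start (horizontal axis), with filled circles for shared peaks and open triangles for each replicate alone. Internal promoters with a complete 5′ end run from 9.42% to 90.7% and first promoters from 7.18% to 95.0%, and incomplete starts stay lower, at 3.59% to 33.3% (the class of 5 starts at 0.8 or more is left out).

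Some sequence motifs in the peaks differed between CpG-rich and CpG-poor promoters and others differed little. The best shared peaks of open promoters were searched on both strands for 12 motifs as plain letters, and a match is a description of the letters only. A peak that was best for several promoters counts once, which gives 1631 internal and 3152 first promoter peaks. The GC box GGGCGG, which Sp1 binds, was in 36.1% of the internal peaks, 58.3% of the first promoter peaks and 13.6% of all 127632 shared peaks. At internal promoters with a CpG ratio of 0.6 or more it was in 62.9%, beside 65.2% at first promoters of that kind, and at those under 0.6 in 21.9%, beside 37.9%. The ETS core CCGGAA was in 8.28% of internal, 16.7% of first and 5.06% of all shared peaks. The E-box CAGCTG, which bHLH factors such as MyoD bind, was in 16.6%, 8.53% and 18.1%. At internal promoters under 0.6 it was in 21.4%, and at first promoters under 0.6 in 13.8%. The AP-1 site TGANTCA was in 4.35% of internal, 1.78% of first and 5.78% of all shared peaks, and the TEAD core GGAATG in 9.81%, 5.96% and 12.2%. In CpG-poor internal peaks these stood at 5.79% and 12.1%, near their portion of all shared peaks. The CCAAT box was in 21.0% of internal, 27.9% of first and 20.1% of all shared peaks, and TATAAA in 2.88%, 1.43% and 7.37%. Between internal promoters at 0.6 or more and those under it, the CCAAT box stood at 22.0% and 20.4%. The NRF1 motif was in 49 internal peaks, 8.03% of first and 1.22% of all shared peaks, and the RUNX letters TGTGGTTN in 1.96% of internal, 1.11% of first and 3.91% of all shared peaks. The CTCF core was in 2.58% of internal, 2.19% of first and 2.46% of all shared peaks. YY1 letters were in 1.23%, 2.51% and 1.09%, and the cAMP response element in 1.96%, 2.70% and 0.789%, with 2.13% at CpG-rich and 1.87% at CpG-poor internal promoters. The letters of the GC box, ETS, NRF1 and cAMP response element hold CpGs, so their counts depend on CpG content by construction. The E-box, AP-1 and TEAD letters hold none.

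Set against the first promoter of the same gene and taken over all 4980 genes, open internal promoters were found with an open first promoter about as often as all these first promoters were open. Of the 1343 genes with an open internal promoter, 833 (62.0%) were open at the first as well, beside 64.5% of all 4980. The first promoter was open at 56.7% of the 3403 genes with a complete internal promoter and at 81.4% of the 1577 with incomplete ones only. Among the 3403, 742 were open at a complete internal promoter and at the first, and 483 at a complete internal one only. Here the first was open somewhat more often at genes with an open complete internal promoter than at all 3403, also in each replicate alone. Another 1186 were open at the first but at no complete internal one, and 992 at neither. Of the 4980 genes, 833 (16.7%) were open at both, 510 (10.2%) at an internal promoter but not at the first, 2379 (47.8%) at the first but at no internal one, and 1258 (25.3%) at neither. Replicate 1 alone gave 1108, 456, 2413 and 1003 genes, and replicate 2 alone gave 1020, 486, 2411 and 1063. At 375 genes (7.53%) an internal promoter was open and neither list had any peak at the first. Of these 375, 29 had a shared peak at another annotated start within 5 kb of the outermost end. At 82 of them no protein-coding transcript starts within 500 bp of the outermost end, a state found at 346 of the 4980 genes (6.95%). At least 2 internal promoters were open at 225 genes.

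The annotation itself was tilted in the same direction as the peaks. At the 375 genes just described, the open internal promoter of highest percentile held more annotated transcripts of any kind than the first promoter in 205 genes and fewer in 70, with medians of 2 and 1, and a transcript of support level 1 started at 76% of these internal promoters and at 40.8% of these first ones. At the 2379 genes open at the first promoter alone, the most upstream internal promoter held more transcripts in 196 genes and fewer in 1735, and the portions with support level 1 were 29.6% and 83.9%. At the 833 genes open at both, the internal promoter held more in 275 and fewer in 362, with 63.6% and 69.0% at support level 1. These counts pool internal promoters with complete and incomplete 5′ ends, so this tilt was not separated from that split. CpG content was tilted likewise. Where a complete internal promoter was open and the first had no peak, the internal one had the higher CpG ratio in 380 of 441 cases. Where both were open, it had the higher ratio in 254 of 905. The word first thus stands for the position in the gene only.

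Where both promoters were open, the first was usually the stronger. Signals were turned into percentiles within each list, since the scale of the signal differs between the lists, and the strongest peak in each window was used. There were 1012 pairs of an open internal promoter and an open first one, and 1007 had a peak of each list in both windows. These 1007 come from 829 genes, so a first promoter counts again for each open internal promoter of its gene. The percentile at the internal promoter minus that at the first had a median of -4.69 in replicate 1 and -4.47 in replicate 2 (SD between replicates 0.155, n = 2). The median of the mean over both lists was -4.82, with quartiles of -25.7 and 5.06. The first promoter was higher in both lists in 584 pairs (58.0%), the internal one in 312 (31.0%), and the lists disagreed or tied in 111 (11.0%). Median signals were 77 and 56 at the internal and 103 and 75 at the first promoter. Over the 901 pairs with a complete 5′ end the median difference was -3.34. At the 638 internal promoters open without an open first one, the best shared peak had median signals of 82 and 58, beside 77 and 55 where both were open.

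**Figure D4:**
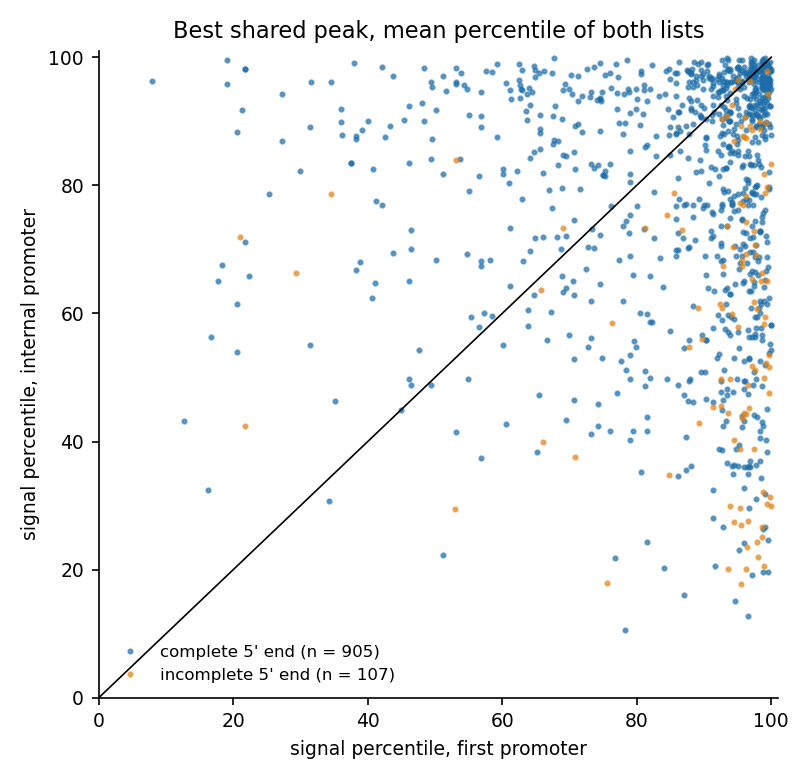
Signal percentile of the best shared peak, as the mean of both lists, at the first promoter (horizontal axis) and at the internal promoter (vertical axis) of the same gene, 1 point per internal promoter for 905 with a complete and 107 with an incomplete 5′ end. Points on the line have equal percentiles. Most points crowd at the right, where the first promoter is strong, and spread along the whole height.

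The 10 strongest internal promoters had signals near the top of both lists. Hdac4 had 141 in replicate 1 and 134 in replicate 2 at a start 15.4 kb inside the gene (chromosome 1, 92180341), while its first promoter had only an unshared peak of 24 in replicate 2. Gpx4, which reduces lipid peroxides, had 141 and 125 at 6.3 kb and no peak at the first. Ndel1 had 142 and 123 at 18.7 kb, and its first promoter had only an unshared peak of 39 in replicate 1. At Rangap1, which activates the GTPase of the Ran nuclear transport system, both promoters were strong, with 138 and 131 at the internal and 95 and 85 at the first. Eef1a1, the translation elongation factor, had 141 and 122 at its internal start and 55 and 39 at the first. Ptprs, Tecr and Samd4b were open at both, with 138 to 140 in replicate 1 and 121 to 124 in replicate 2 at the internal start. Ssc4d and Cyb5a, which encodes cytochrome b5, had no peak at the first. All 10 lie in introns and have a complete 5′ end, and 9 of the 10 carry support level 1 (Samd4b has level 5). Of their CpG ratios, 8 are 0.61 or more, and the exceptions are Ssc4d at 0.43 and Cyb5a at 0.49.

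The strongest internal promoters with no peak of either list at the first were those of Gpx4, Ssc4d, Cyb5a, Aktip, Tbc1d14, Snd1, Inip, Iffo2 and Ppp2r5a. Tbc1d14, a regulator of autophagy, supplied 2 of the 10, which lie near each other at 10.9 and 11.5 kb and share their strongest peak of 136 and 123. Snd1, a nuclease-domain RNA-binding protein, had 136 and 121 at 5.2 kb. Inip had 134 and 127 at 17.7 kb, where the CpG ratio was 0.87 against 0.09 at the first. Ppp2r5a, a regulatory subunit of the phosphatase PP2A, had 133 and 127 at 6.2 kb, with ratios of 0.94 and 0.23. In 9 of these 10 promoters the internal CpG ratio was above that of the first, and at Cyb5a it was 0.49 against 0.52.

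The widest gaps between the promoters of a gene ran in both directions. In favour of the internal start, Asap2, an ARF GTPase-activating protein, had 123 and 87 against 27 and 10 for the shared peak at the first, 121.3 kb upstream. Lman1, a cargo receptor between endoplasmic reticulum and Golgi, had 135 and 125 against 31 and 19, and the imprinted zinc-finger gene Plagl1 had 114 and 89 against 31 and 19. Ppp2r3d, another phosphatase subunit, supplied the other 2 of the 5, with 122 and 115 against 27 and 24. In favour of the first, Fhit had 113 and 102 against 28 and 17 at the internal start, Arhgap12 had 137 and 117 against 28 and 22, and Atg7, an enzyme of autophagy, had 112 and 79 against 28 and 19. Otulin and Btbd8 completed the 5. The internal promoters on the low side had CpG ratios of 0.18 to 0.33, and those on the high side 0.61 to 1.09.

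Transcription factors were the first of 7 lists of genes known for alternative promoters. Of 33 listed genes, 23 have an internal promoter by the rule. Of their 70 internal promoters 30 were open (42.9%), beside 21.3% of all internal promoters. Among the 62 with a complete 5′ end 28 were open (45.2%), beside 30.6% of all complete ones. By gene, 10 were open at both kinds of promoter, 7 at an internal one only (3 of them with no peak at the first), 4 at the first only and 2 at neither. Foxp1, a forkhead repressor, had 4 of 8 internal promoters open. The strongest of them, 494.4 kb from the outermost end, had 101 and 83, close to 99 and 66 at the first. Foxp2 had 42 and 29 at 283.9 kb against 108 and 68 at the first. Nfic, a nuclear factor I gene needed for tooth roots, had 58 and 34 at 24.6 kb and 95 and 69 at an incomplete start at 48 kb, with no peak at the first. Erg was open at the first only, with 63 and 54. The following were picked after their values were seen. Runx1 (chromosome 16, 92697328) had 115 and 90 at a start 128.8 kb downstream, which has its own start codon, and only an unshared peak of 36 in replicate 1 at the first. Runx3 had 52 and 48 at 31.8 kb and 49 and 40 at the first. Runx2, the master factor of bone, had 55 and 24 at an incomplete start at 80.1 kb, and its first promoter had unshared peaks of up to 51 and 31. Trp63 (chromosome 16, 25801916) had 29 and 42 at the start of the form that lacks the transactivation domain, and no peak at the first, 118.2 kb upstream. Replicate 2 had the higher signal here, as at 61 of the 1650 open internal promoters. Nfib had 106 and 90 at 200 kb against 54 and 43, and Mef2c, a factor of muscle and cartilage, had 106 and 84 at 20.3 kb against 58 and 45. At Sox5 the values were 70 and 59 against 69 and 43, and at Sox6 69 and 51 against 61 and 30, so for these cartilage factors the internal start was the higher in both replicates, by a single unit in replicate 1 of Sox5.

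**Figure D5:**
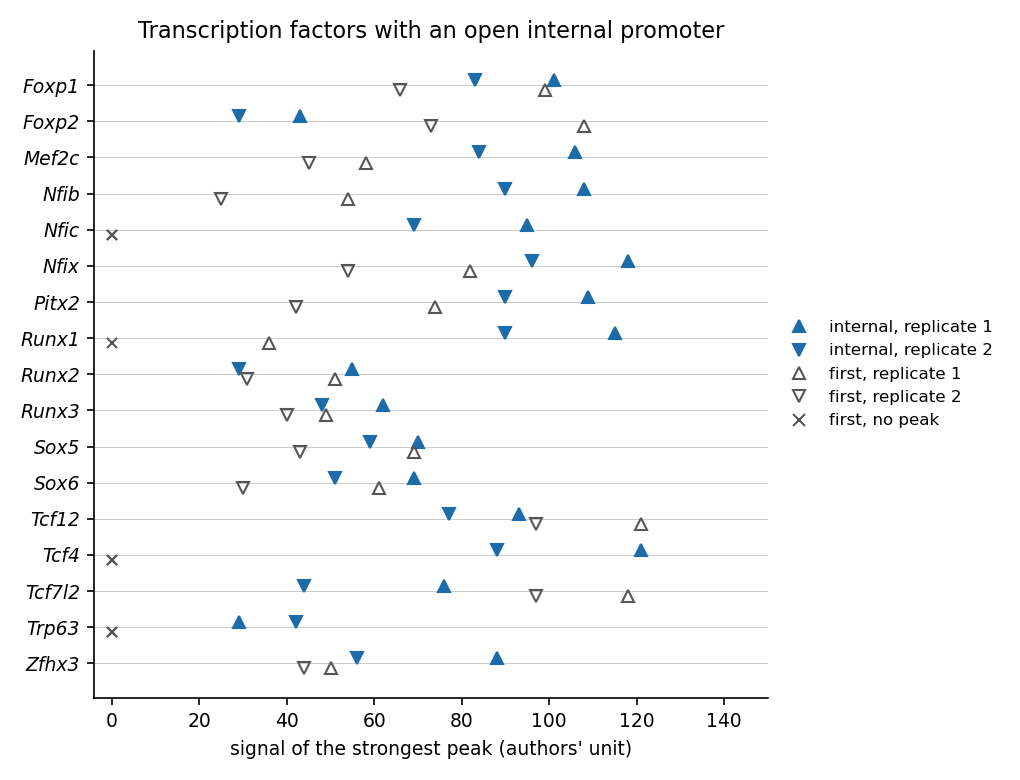
Signal of the strongest peak in the window (horizontal axis, the authors' unit) for the 17 listed transcription factors with an open internal promoter, at the internal promoter of highest percentile (filled) and at the first promoter (open), with replicate 1 as upward and replicate 2 as downward triangles and a cross at 0 where the first promoter has no peak. Foxp2, Tcf12 and Tcf7l2 have the higher signals at the first promoter in both replicates, and Runx2 in replicate 2 alone.

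Nuclear receptors had 15 of 28 internal promoters open (53.6%), in 14 genes. By gene, 5 were open at both, 3 at an internal one only (2 of them with no peak at the first), 4 at the first only and 2 at neither. Esr1, the estrogen receptor, had 35 and 30 at 98.6 kb and 45 and 31 at the first. Rara, a retinoic acid receptor, had 130 and 122 at 9.9 kb and 101 and 79 at 32.6 kb against 53 and 53 at the first, so both were higher than the first in both replicates. Hnf4a, a liver and gut factor, had a weak shared peak of 29 and 26 at 43.3 kb and none at the first. Nr2f2 was open at the first only, with 58 and 33.

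Genes of the cytoskeleton had 41 of 122 internal promoters open (33.6%), in 23 genes. Of these genes 14 were open at both, 5 at an internal one only (3 of them with no peak at the first) and 4 at the first only. Among the 70 with a complete 5′ end 39 were open (55.7%). Ablim1, an actin-binding LIM protein, had 4 of 6 open, from 37 and 35 up to 92 and 79, against 53 and 23 at the first. Ank2, an ankyrin that anchors membrane proteins, had 104 and 80 at 90.3 kb against 70 and 69. Ank1 had 3 of 4 open, the strongest with 68 and 49 at 164.2 kb, and unshared peaks of 50 and 22 at the first. Epb41 was open at the first only, with 108 and 91. Picked after their values were seen, Tpm3, a tropomyosin, had 128 and 109 at 6.9 kb and no peak at the first, and Tpm1 134 and 123 at 5.4 kb against 112 and 89. Dmd, the dystrophin gene, had a shared peak of 64 and 27 at a start 2099.5 kb inside the gene, while its first promoter had only an unshared peak of 50 in replicate 1.

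Genes of the extracellular matrix and of adhesion had 5 of 16 open (31.3%), in 11 genes, and 4 of the 6 with a complete 5′ end. With the 50000 peaks of highest signal 12.5% of the 16 were open. Col13a1 had 67 and 49 at an incomplete start in an exon, 112.7 kb from the first, where it had 74 and 63. Col9a1, a cartilage collagen, had 33 and 35 at 17.6 kb and only an unshared peak of 27 in replicate 1 at the first. Agrn was open at the first only, with 100 and 74, as were 6 others of the list.

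Signalling genes had 20 of 51 open (39.2%), in 18 genes. Of these genes 5 were open at both, 5 at an internal one only (3 of them with no peak at the first), 6 at the first only and 2 at neither. Fgf1 had 63 and 48 at 10.7 kb against 38 and 28. Fgfr1, a fibroblast growth factor receptor, had 122 and 105 at 5.1 kb and no peak at the first. Bmpr1a was open at the first only, with 86 and 39. The following were picked after their values were seen. Fgfr2 is an extreme of the annotation, with a start 2857.1 kb from the outermost end that had 118 and 87 against 78 and 60, and the longest distance of any internal promoter, 2861.5 kb, is in the same gene. Ptch1, the Hedgehog receptor, had 91 and 66 at 7.9 kb against 94 and 69.

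Imprinted genes, expressed from 1 parental copy, had 8 of 18 open (44.4%), in 7 genes. All 3 internal promoters of Gnas were open, with 74 and 52, 95 and 66, and 134 and 97 in order along the gene, against 86 and 68 at the first. Grb10 had 112 and 79 at 12 kb against 58 and 34. Igf2, the fetal growth factor, had 85 and 93 at 9.3 kb and 71 and 71 at 10.8 kb, with no peak at the first, and Mest had 108 and 84 at 14.5 kb with none at the first. Dlk1 was open at the first only, with 73 and 40. The data do not tell the parental copies apart.

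Neuronal genes had 25 of 82 open (30.5%), in 29 genes. Of these genes 10 were open at both, 8 at an internal one only (5 of them with no peak at the first), 8 at the first only and 3 at neither. Auts2 had 3 of 6 open, the strongest with 98 and 65 at 1004.7 kb, against 130 and 102 at the first. Camk2a, a kinase of synapses, had 80 and 55 at 37.9 kb against 62 and 37. Bdnf, the neurotrophin, had 2 of 5 open, at 69 and 35 and at 69 and 58, and no peak at the first. Cadps was open at the first only, with 50 and 25. Each of the 7 lists was above the 21.3% of all internal promoters. Among promoters with a complete 5′ end the lists ran from 38.6% (neuronal) to 66.7% (matrix and adhesion), beside 30.6% of all complete ones. Nothing particular to a list is read from that, since no test was run.

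Some genes had several open internal promoters, though not necessarily in the same cells. Plec, which encodes the linker protein plectin, had 6 of 8 open within its 61.6 kb, with signals from 44 and 32 to 96 and 68, against 71 and 47 at the first, and all 6 have a start codon of their own. Tcf4, a bHLH factor, had 6 of 10 open and no peak at the first, with the strongest, 121 and 88, 249.6 kb inside the gene. Nr3c1, the glucocorticoid receptor, had all 5 open between 28.1 and 32.2 kb. Their signals were 123 and 107, 108 and 77, 134 and 99, 55 and 44, and 37 and 36. All 5 share a start codon with a transcript that starts within 5 kb of the outermost end. The first promoter of Nr3c1 had only an unshared peak of 37 in replicate 1. Pde4d, a cAMP phosphodiesterase, had 5 of 11 open over 1503.5 kb, with the strongest, 108 and 93, at an incomplete start. Nedd4l, a ubiquitin ligase, had 5 of 8 open, all weaker in both replicates than its first promoter, at 128 and 98. Sept9 also had 5, of 6. Neighbouring promoters of Nr3c1 and Plec lie close enough to have 1 peak in both windows, and 270 internal promoters have a window that overlaps that of the next.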

How the data were processed

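DNase-seq of whole limb was used, 1 group of 2 libraries at embryonic day 14.5. Per the labels, the authors placed both libraries on mm10, and per the deposited file lists peaks and hotspots were called in each library. For the aligner and the peak caller, names and settings were not given in the sources used here. As the peak value the authors deposited a signal, a whole number in an unstated unit. For hotspots the authors deposited a −log10 q-value, from −log10 of 0.05 to a ceiling of 100, and was used only to place hotspots. Signals were ranked as percentiles within each list, which removes a difference in scale between lists and not one in depth, and depth is unknown.

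From these files, peaks on the autosomes, X and Y were assigned to starts by their centre, with Python 3.11.15, NumPy 2.4.6 and samtools 1.23.1 (sequence), and figures were drawn with matplotlib 3.10.9. Shared peaks took the coordinates of replicate 1. Genes, transcripts, tags and support levels came from GENCODE M21, and sequence from GRCm38, which is mm10. Assignment was tested on simulated peaks. No test between samples was possible. Members, gene lists and motifs were chosen with earlier results of these data known. Named were the 10 strongest internal promoters, the 10 strongest without a peak at the first, the 5 genes with most open ones, the 5 highest and 5 lowest differences, and members of 7 lists (171 genes, all matched), taken in alphabetical order by state. Others are said to be picked after their values were seen. Alternatives varied the overlap, the peak set, the window, the distance, the transcripts and the first promoter, used hotspots, and left out each replicate.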

Additional observations from a re-analysis of the deposited data

How the results depend on the processing

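The order of the 2 kinds of promoter and the sign of the difference in percentile held under every alternative run, and the sizes moved with the definition. The percentage of internal promoters open (21.3%) was 22.1% when any overlap of at least 1 bp counted, 12.4% with the 50000 peaks of highest signal, 17.8% with windows of 250 bp, 25.9% with windows of 1000 bp, 30.6% with complete transcripts only and 20.1% with hotspots. For first promoters (64.5%) these were 66.9%, 53.5%, 58.4%, 68.8%, 56.7% and 55.7%, with 68.7% for internal starts over 10 kb away and 68.6% when any start within 5 kb of the outermost end counted, an alternative chosen after seeing the data. The median percentile difference (-4.82) was -5.76 with the 50000 peaks, -4.07 and -5.59 with windows of 250 and 1000 bp, -5.75 over 10 kb, -3.34 with complete transcripts, -2.94 with the outermost protein-coding start as the first, and -5.75 with any start within 5 kb. Without 1 replicate, so with the peaks of the other list alone, the percentages ran from 24.8% to 26.0% and from 68.9% to 70.7%, the difference from -7.14 to -6.52, and the genes open at an internal promoter with no peak at the first from 456 to 486. Under the other alternatives that gene count (375) ran from 277 (over 10 kb) to 404. Joining starts within 1000 bp, also chosen after seeing the data, gave 21.1%. Of 175 named open promoters, 104 kept a shared peak among the 50000 strongest and 148 within 250 bp. Over the alternatives, the percentage open ran from 24.3% to 54.3% for transcription factors, 32.1% to 64.3% for nuclear receptors, 12.5% to 66.7% for matrix and adhesion, 20.5% to 55.7% for the cytoskeleton, 19.6% to 49.0% for signalling, 33.3% to 53.3% for imprinted and 14.6% to 40.2% for neuronal genes. Samples could not be paired between groups because there is only 1 group, and the pairs above are of promoters within a gene. Only 2 libraries, an unknown depth and annotated starts in place of measured transcripts limit what the values show.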

Other observations

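Some internal promoters held strong peaks in both lists that were not shared because the peaks are offset, and they are counted among the 548 not open. At Shroom3, a regulator of cell shape, an internal promoter 214.6 kb from the outermost end had peaks of 109 in replicate 1 and 79 in replicate 2. At Tcf7l2 the offset was at the first promoter, with unshared peaks of 118 and 97. Both genes were picked after their values were seen.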
